A study of Mus musculus with 2 samples.

Results

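The genes described here are 10 protein-coding genes of the heat shock and chaperone system, Hspa8, Hspa1a, Hspa1b, Hsph1, Dnajb1, Hsp90aa1, Hsp90ab1, Hspb1, Hspb6 and Hspa5, taken by name from the 21938 protein-coding genes annotated on the mouse build mm10. The locus of a gene is its body with 10 kb on each side. All 10 genes were found in the annotation. The assay was DNase-seq, a measure of open chromatin in which the enzyme DNase I cuts most readily where DNA is free of nucleosomes. The tissue was whole urinary bladder of male mice of the cross B6CASTF1/J at 14 days of age. The 2 libraries form 1 group without treatment or genotype contrast, so no condition was compared. Biological replicate 1 is named for 1 male and replicate 2 for 3 males, which makes the second a pool, and both carry the same donor entry. A whole tissue mixes cell types, and a low signal cannot be told apart from a promoter open in few cells.

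Chaperones bind unfolded or partly folded proteins and keep them from aggregating. HSP70 proteins work with J-domain partners that start their ATP cycle and with HSP110 exchange factors, HSP90 proteins finish the folding of kinases and receptors, and small heat shock proteins hold unfolded clients without ATP. Some of these genes are active in every cell, and others are switched on by the heat shock factor HSF1 at heat shock elements or, in the endoplasmic reticulum (ER), by the unfolded protein response. In bladder, smooth muscle also uses small heat shock proteins, among them Hspb6, in its contractile apparatus.

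A peak is a stretch that the authors called as accessible, with a signal that is their own density per peak. A footprint is a short stretch protected from cutting within accessible DNA. A region was called shared when peaks of both libraries overlapped by at least 1 bp, and a promoter was called open when a shared region lay within 1 kb of any annotated start of the gene. The longer of the 2 peak lists held 139821 peaks in replicate 1 and 82225 in replicate 2, and the footprint lists held 331596 and 200630. Markers of the labelled tissue were open: 8 of 8 urothelial, 6 of 6 smooth muscle and 5 of 5 fibroblast genes, against 0 of 5 immune and 0 of 3 hepatocyte genes. Of the other marker lists, 2 of 5 endothelial, 2 of 5 nerve and glial and 2 of 3 skeletal muscle genes were open. The same rule called 66.1% of all protein-coding genes open. The median signal of the open markers was 3.55 for urothelium, 1.9 for smooth muscle, 2.19 for fibroblasts and 1.93 for skeletal muscle. All were below the 4.61 of all open genes, and the open call alone does not identify the tissue.

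All 10 genes had an open promoter, where the rule called 66.1% of all protein-coding genes. All 10 were also open in the authors' stricter lists, which called 61.8%. Every member's strongest promoter peak held at least 1 footprint found in both libraries, against 93% of all open promoters. For the footprint, 10 of 10 stands near the background and is no result about these genes. They differed in the strength of the peak, which ran from 3.23 at Hspa1a to 16.3 at Hspa8. Their median signal was 10.6, and the median of the 14500 open genes was 4.61. Of the 10, 7 lay above that median, and Hspb1, Hspa1b and Hspa1a lay below it.

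**Figure D1:**
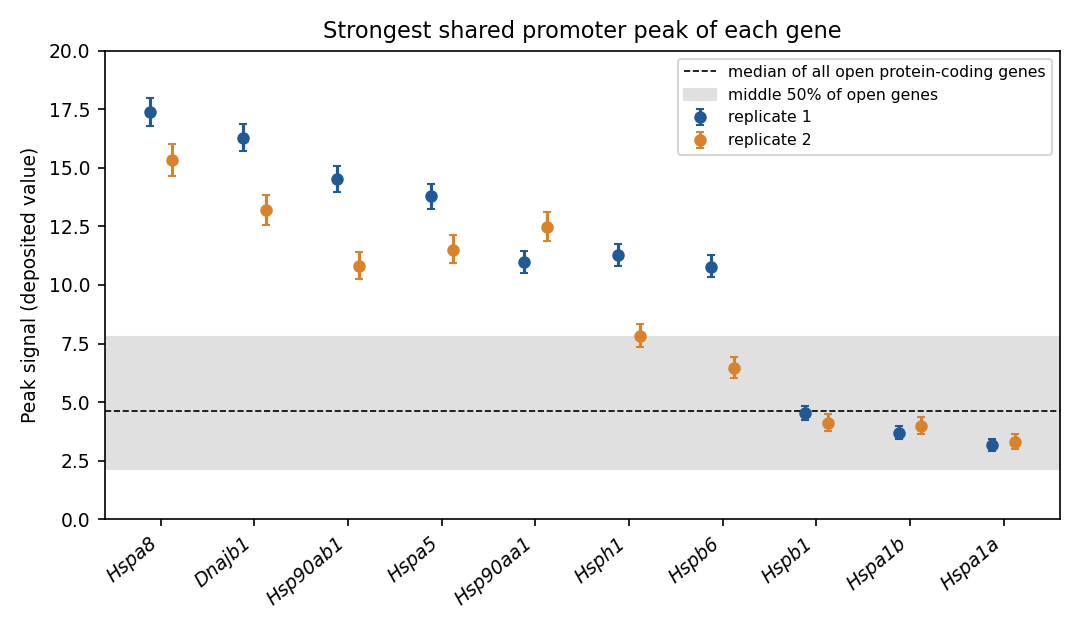
Signal of the strongest shared promoter peak of each gene (vertical axis, deposited value) in replicate 1 (blue) and replicate 2 (orange). Bars are Poisson 95% intervals that hold if 1 signal step is 1 cut and cover counting error only, the dashed line is the median of all open protein-coding genes (4.61) and grey their middle 50%. Hspa8, at 17.4 and 15.3, is the highest in both libraries and Hspa1a, at 3.16 and 3.29, the lowest.

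Hspa8 encodes the constitutive HSP70 of the cytosol (HSC70), which folds new proteins and uncoats clathrin vesicles. Its promoter peak (chr9:40800821-40801220) had a signal of 17.4 in replicate 1 and 15.3 in replicate 2, a mean of 16.3 ± 1.45 (SD, n = 2). That mean was higher than 99.2% of open genes. The peak spanned 400 bp, was centred 37 bp inside the gene and held 6 footprints seen in both libraries, reaching from −124 to 229 bp relative to the start. A second promoter peak centred at −903 was equal in the libraries at 2.56 and 2.57, and it held no footprint in either. The peak at +4497 had 3.36 in replicate 1 and 1.18 in replicate 2. Its centre lay within 1 kb of an inner Hspa8 start and of the small nucleolar RNA Snord14e. The 2.84-fold gap at this peak was the widest between the libraries among the shared regions of all 10 loci. Within the gene, 2 intronic peaks at +6060 and +6728 were weak, with means of 0.602 and 0.553.

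The heat-inducible HSP70 genes Hspa1a and Hspa1b encode nearly the same protein and sit side by side on chromosome 17, so that their loci overlap. They had the weakest promoter peaks of the 10 genes. Hspa1b (chr17:34959161-34959380) reached 3.69 in replicate 1 and 3.997 in replicate 2, a mean of 3.84 ± 0.220 (SD, n = 2). Hspa1a (chr17:34972061-34972480) reached 3.16 and 3.29, a mean of 3.23 ± 0.0943. These values stood higher than 42.7% and 36.5% of open genes. The Poisson intervals of the 2 genes touch in replicate 1, at 3.42 to 3.97 for Hspa1b and 2.91 to 3.42 for Hspa1a. They do not overlap in replicate 2, at 3.65 to 4.36 and 2.98 to 3.63. The peak of Hspa1a also covers the start region of Hspa1l, a testis HSP70 gene that starts within 1 kb of it on the same stretch, and the signal cannot be assigned to one of them.

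The promoters of the pair are printed below because the copies are almost identical, which limits what a mapped read can say. The bases are the 250 before the RefSeq start (GRCm38.p6, minus strand of chromosome 17, read 5′ to 3′), and capitals mark the footprints found in both libraries.
Hspa1a (chr17:34972157-34972406): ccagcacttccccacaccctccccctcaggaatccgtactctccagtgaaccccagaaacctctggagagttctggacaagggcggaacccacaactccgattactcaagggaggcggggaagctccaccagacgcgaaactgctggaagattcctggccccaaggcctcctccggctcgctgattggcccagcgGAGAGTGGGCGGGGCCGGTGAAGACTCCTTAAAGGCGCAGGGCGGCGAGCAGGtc
Hspa1b (chr17:34959239-34959488): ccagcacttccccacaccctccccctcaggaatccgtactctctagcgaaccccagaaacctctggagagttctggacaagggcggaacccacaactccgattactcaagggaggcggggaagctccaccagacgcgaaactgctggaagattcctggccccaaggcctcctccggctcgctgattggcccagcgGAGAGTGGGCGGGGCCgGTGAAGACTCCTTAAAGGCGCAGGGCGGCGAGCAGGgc
Over the 300 bases of the promoter windows 296 were identical, a share of 98.7%, with a longest identical run of 201. Of the 32-base words that start in the Hspa1b peak, 73.2% occur at 2 places in the genome, and of those in the Hspa1a peak 53.6% do. The strongest peaks of the other genes held no repeated word, except Hspb1 with 7.75%. The treatment of reads that fit both copies is unstated in the sources at hand, and the part of repeated sequence in the low values was not tested.

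Before the start, both copies had footprints between −55 and −3 (position 0 is the first transcribed base). Hspa1a held 1 shared site from −55 to −3, and Hspa1b held 2 that cover −55 to −40 and −38 to −3. Inside the gene the copies differed, since Hspa1a held a shared site at 30 to 44, where 19 of 46 words were repeated, and the Hspa1b peak held none after its start. Of the 84 words that touch the Hspa1a site 53 were repeated, and of those touching the Hspa1b sites all 47 and 36 of 67 were. Each stretch holds 2 GC boxes (GGGCGG, the letters bound by SP1), at −49 and −16. A further footprint of Hspa1a between −284 and −261 lay in sequence without repeated words, which the Hspa1b peak does not reach. Signal and footprints near the start of either copy are uncertain for that reason.

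Sequence without repeated words beside Hspa1b was open too. Peaks centred at −443 and −783 had means of 2.58 ± 0.214 and 1.45 ± 0.509 (SD, n = 2). The first held 2.73 and 2.43 in replicates 1 and 2 and 2 shared footprints. Between the genes a weak shared peak (1.29 and 1.06) lay at −5613 from the Hspa1b start and +7305 from the Hspa1a start. At Hspa1a the strongest peak of the locus, 5.69 and 5.84, belonged to the start of the neighbour Lsm2, at −9795.

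Hsph1 encodes HSP110, which exchanges nucleotide on HSP70 and helps it to dissolve aggregates. Its promoter had a pair of strong peaks. The one at the start (chr5:149636281-149636520) reached 11.3 in replicate 1 and 7.84 in replicate 2, a mean of 9.56 ± 2.43 (SD, n = 2), and the one at −355 reached 7.41 and 6.00. No other peak was called in its locus of 42.1 kb, the longest of the 10, in either library. It thus had 2 shared regions, the fewest of these genes.

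Dnajb1 encodes HSP40, the stress-inducible J-domain partner of HSP70. The peak at its start (chr8:83608081-83608280) reached 16.3 and 13.2 in replicates 1 and 2, a mean of 14.7 ± 2.19 (SD, n = 2), higher than 98.3% of open genes. It was short, at 200 bp, and held 2 shared footprints, at −93 to −68 and 60 to 74. Tecr, a gene of fatty acid elongation, starts within 1 kb, and the peak cannot be assigned to one of the genes. The body of Dnajb1 held a peak at +518 with nearly equal values, 3.98 and 3.81. Outside promoters the strongest shared peak of all loci lay 14308 bp downstream of the start, at 6.71 and 4.21 (mean 5.46 ± 1.76).

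The HSP90 genes had strong promoters of different layout. Hsp90ab1 encodes the constitutive HSP90 beta, and its peak at the start (chr17:45573201-45573440) reached 14.5 and 10.8, a mean of 12.7 ± 2.61 (SD, n = 2). A second peak at −620 was almost as strong, at 12.0 and 8.74, and the peaks held 5 and 4 shared footprints. Hsp90aa1 encodes the inducible HSP90 alpha. Its peak at the inner start (chr12:110696321-110696580) reached 11.0 in replicate 1 and 12.5 in replicate 2, a mean of 11.7 ± 1.07. A separate peak at −6716 reached 5.36 and 3.97. It lay upstream of the outermost annotated start, 110702728, with its centre within 1 kb of it. The order of the 2 HSP90 promoters thus changed with the library, and their means hide opposite differences. In replicate 1 the Poisson intervals were 13.99 to 15.07 for Hsp90ab1 and 10.51 to 11.45 for Hsp90aa1. In replicate 2 they were 10.26 to 11.42 and 11.88 to 13.13.

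Hspa5 encodes BiP, the HSP70 of the ER lumen and a main target of the unfolded protein response. Its peak (chr2:34771801-34772120) reached 13.8 and 11.5, a mean of 12.6 ± 1.60 (SD, n = 2), higher than 95.6% of open genes. It held 7 shared footprints, the most of the 10 promoters. Apart from a weak second promoter peak at 0.868 and a peak of 0.614 in an intron of Rabepk, nothing else in its locus was shared. The bases before the GENCODE start are printed because 3 of the footprints lie in them (plus strand, RefSeq GRCm38.p6, capitals as above).
Hspa5 (chr2:34771840-34771969): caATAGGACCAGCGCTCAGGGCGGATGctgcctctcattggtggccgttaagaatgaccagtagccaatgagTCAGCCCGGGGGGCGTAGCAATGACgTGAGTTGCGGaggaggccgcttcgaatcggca

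Hspb1 encodes HSP27, a small heat shock protein known to act on actin filaments. Its peak (chr5:135887661-135888060) reached 4.52 and 4.11, a mean of 4.31 ± 0.290 (SD, n = 2), near the median of open genes. At 400 bp it was as wide as that of Hspa8 and held 6 shared footprints, all upstream of the start. The signal was spread beyond the promoter as well. A peak at −7898 reached 4.30 and 3.99, close to the values of the promoter itself. A peak at −8278 averaged 2.36 and one at +5102 averaged 2.08. No other protein-coding gene lies in this locus, where 4 of 6 shared regions were intergenic.

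Hspb6 encodes HSP20, a small heat shock protein of muscle that is phosphorylated when smooth muscle relaxes. On chromosome 7 the annotated gene begins at 30552178. The start nearest to its peak is that of a non-coding transcript at 30552524, and the nearest coding start is at 30553268. The strongest peak (chr7:30552241-30552520) lay inside the annotated gene, between 30552178 and 30552524. It reached 10.8 in replicate 1 and 6.48 in replicate 2, and Proser3 and Gm38670 also start within 1 kb of it. Over the coding start the libraries had 1.04 and 0.943, and no footprint of both libraries lay in that peak. The mean of 8.63 ± 3.05 (SD, n = 2) that the open rule gives to Hspb6 therefore describes DNA shared with its neighbours. The bases before a RefSeq start of both small heat shock genes are shown for their dense footprints (plus strands, RefSeq GRCm38.p6, capitals as above). The stretch of Hspb6 lies within the GENCODE gene.
Hspb1 (chr5:135887669-135887918): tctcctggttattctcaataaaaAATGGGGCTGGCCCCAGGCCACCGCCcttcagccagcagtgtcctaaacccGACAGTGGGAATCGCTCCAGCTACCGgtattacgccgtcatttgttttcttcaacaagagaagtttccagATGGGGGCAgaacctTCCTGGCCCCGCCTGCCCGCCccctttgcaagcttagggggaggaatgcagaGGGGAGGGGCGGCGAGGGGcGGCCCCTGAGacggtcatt
Hspb6 (chr7:30552290-30552539): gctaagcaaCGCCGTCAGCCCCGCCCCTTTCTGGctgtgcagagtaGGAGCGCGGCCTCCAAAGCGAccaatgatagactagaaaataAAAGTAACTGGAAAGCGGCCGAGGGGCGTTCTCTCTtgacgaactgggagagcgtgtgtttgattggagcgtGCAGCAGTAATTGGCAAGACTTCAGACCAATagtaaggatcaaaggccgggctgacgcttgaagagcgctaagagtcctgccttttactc

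**Figure D2:**
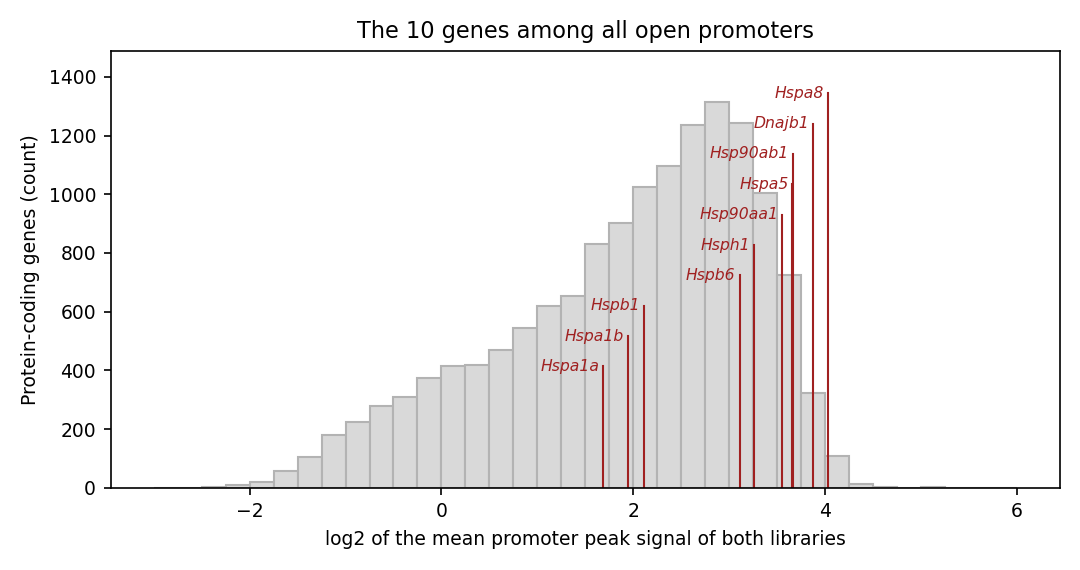
Histogram of log2 of the mean promoter peak signal of both libraries (horizontal axis) over the 14500 open protein-coding genes (vertical axis, genes), with each of the 10 genes as a red line. Line heights only separate the names. Of the 10 lines 7 lie in the upper 50% of the distribution and 3 (Hspb1, Hspa1b, Hspa1a) in the lower.

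The layout of footprints differed among the genes more than their presence did. The strongest peaks held 2 to 7 shared footprint sites, with a median of 4.5 against 3 over all open genes. Dnajb1 and Hspa1b had the fewest, 2 each, although the first has one of the strongest peaks and the second one of the weakest. In 9 of 10 genes the peak was centred upstream of the nearest annotated start, at positions from −143 to −9. Every gene had a shared site within 100 bp before its start. Hspb6 reached its nearest site at −74 to −44 and Hspa1a ran from −55 to −3.

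**Figure D3:**
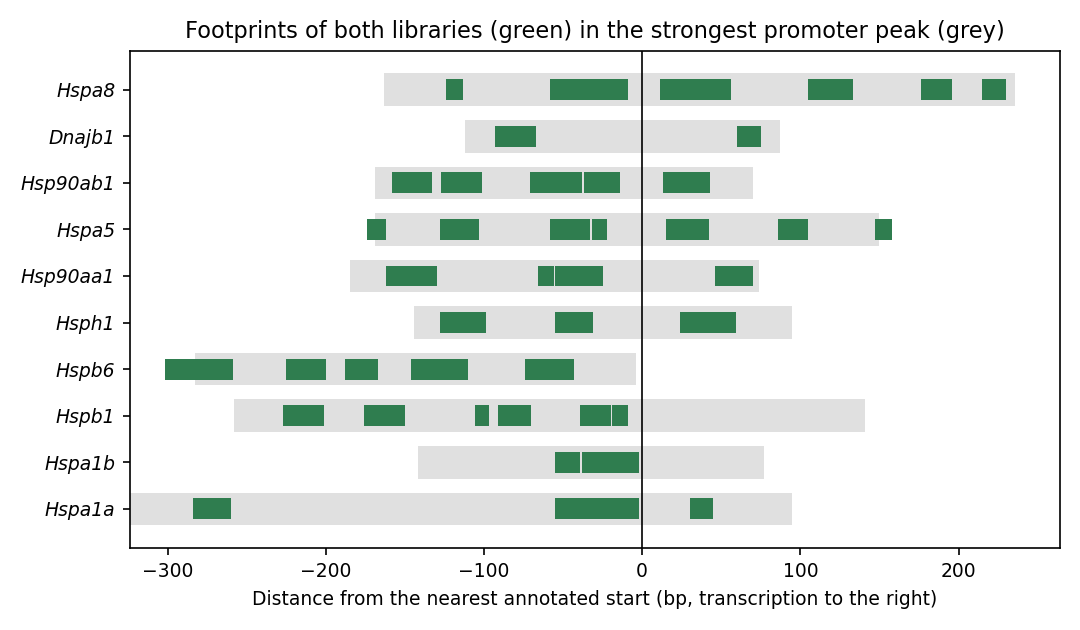
Footprints found in both libraries (green) in the strongest promoter peak (grey) of each gene, by distance from the nearest annotated start in bp (horizontal axis, transcription to the right). The sites of Hspb1, Hspb6 and Hspa1b lie upstream of the start, while Hspa8 carries 4 of its 6 sites inside the gene.

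Promoter letters were searched for known elements in 300-base RefSeq windows (250 before and 50 after the start) of the 7 genes in the table, Hspa1a, Hspa1b, Hsph1, Dnajb1, Hspb1, Hspb6 and Hspa5. Hspa8, Hsp90aa1 and Hsp90ab1 were not among them. Both strands were read and positions count from the RefSeq start, which for Hspa5, Hsph1, Dnajb1 and Hspb6 differs from the GENCODE start used for footprints. The heat shock element was read as GAA, TTC and GAA with 2 free letters between each, allowing at most 1 mismatch. It was in 5 of 7 genes, against 8.15% of the 27025 genes in the table. Hspa1a and Hspa1b, 2 of the 5, carry the same matches in nearly identical windows. A gene counted if any of its windows matched, and the 7 genes had 10 windows, against 32851 windows for the 27025 genes. These limits also hold for the counts of the other elements. The 13-letter matches are printed in capitals with a few bases around them, in the direction of the gene. Those of Hsph1 at −33 to −21 and 31 to 43, which overlap printed ones, are left out.
Hspa1a and Hspa1b, −114 to −102: ccagacgcGAAACTGCTGGAAgattcctg
Hspa1a and Hspa1b, −109 to −97: cgcgaaacTGCTGGAAGATTCctggcccc
Hspb1, −117 to −105: caacaagaGAAGTTTCCAGATgggggcag
Hsph1, −28 to −16: tctttctcGAAGGCTCGAGAAgaaggaag
Hsph1, 36 to 48: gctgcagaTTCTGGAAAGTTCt
Hspb6, −125 to −113 at the coding start: ccaagtaaTTATTGAAGTTTCtaaataag
The match at 36 to 48 of Hsph1, inside the transcript, was the only one without a mismatch, where 0.662% of all genes have such a match. The Hsph1 match at −28 to −16 of the RefSeq start also lies inside the GENCODE transcript. In Hspa1a, Hspa1b and Hsph1 the matches come in overlapping pairs on opposite strands, 5 bases apart. A window of 500 bases before to 100 after the start added Dnajb1, for 6 of 7 genes against 15.9% of all.

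All 10 matches with at most 1 mismatch lay within shared peaks, and 2 of them touched a shared footprint. The matches of Hspa1a and Hspa1b had no footprint in either library, and neither did the exact match of Hsph1. The match of Hspb1 and the Hsph1 match at −28 to −16 each touched 1 shared site at an edge. A match is a set of letters and does not show that a factor was bound, and a missing footprint does not show that none was. How often other letters of these windows touch a shared footprint was not counted, so the 2 of 10 has no background. The matches of Hspa1a and Hspa1b lie in nearly identical sequence and enter this count separately.

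A GC box (GGGCGG) was in 7 of 7 genes against 38.2% of all, and the CCAAT box (CCAAT) in 6 of 7 against 41.1%, Hspb1 having none. The windows of these genes were rich in G and C, at 52.7% to 70.7%, against a median of 52.7% over all windows. CpG pairs ran at 0.53 to 1.19 times the number expected from their C and G, against a median of 0.38. The part of base composition in the shares of both boxes was not tested. Of the 18 GC box matches 13 touched a shared footprint, among them all 4 of Hspb1. Those without one were at −170 in Hspa1a and Hspa1b, at −47 of the Hspb6 coding start and 2 at Dnajb1. Of the 14 CCAAT matches 4 touched a shared footprint. In Hspb6 these were the boxes at −81 and −64, while those at −183 and −100 touched none, and neither did the 2 boxes of Hsph1 or the box of Hspa1a and Hspa1b at −67. The TATA box (TATAAA) was found at Hspb6 alone, at −29 to −24 of the coding start, with no footprint in either library, against 15.7% of genes. The counts of GC and CCAAT boxes that touched a shared footprint have no background either. Shared footprints cover much of some windows, as the capitals printed above for Hspb1 and Hspb6 show. Boxes in the nearly identical windows of Hspa1a and Hspa1b were counted for each gene. Whether these boxes touch footprints more often than other letters do was not tested.

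The ER stress element, CCAAT and CCACG with 9 free letters between them, the site at which ATF6 and the CCAAT factor NF-Y act together, was in Hspa5 alone of the 7 and in 0.137% of all genes. It contains a CCAAT box by its definition. The match runs from −65 to −47 of the RefSeq start, which is inside the GENCODE transcript, in a peak of both libraries, with a footprint in replicate 2 and none in replicate 1.
Hspa5, −65 to −47: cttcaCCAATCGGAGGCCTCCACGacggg
The CCAAT box of Hspa5 at −98, outside that element, did lie under a shared footprint. The AP-1 site TGANTCA was in Hspa5 alone, at −182, against 8.97% of genes. It overlaps the CCAAT box at −186 and touched a shared footprint. The cAMP response element TGACGTCA (2.03% of genes) and the CArG box of smooth muscle genes (1.81%) were in none of the 7 windows.

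Beyond the promoters, the 9 joined loci of the 10 genes covered 259 kb and held 70 regions, of which 52 were shared, 17 were in replicate 1 alone and 1 in replicate 2 alone. That made 20.04 shared regions per 100 kb, against 4.31 over the joined loci of all protein-coding genes. The loci were shorter, with a median of 24.98 kb against 37.4 kb, and the part of length in this density was not tested. Of the 52 shared regions 33 were centred in promoters, 15 in intergenic sequence, 4 in introns and 0 in exons. Shared regions per locus ran from 2 at Hsph1 to 9 at Hsp90ab1, with a median of 6 against 3 for all genes. The 10 loci held 260 distinct footprint sites, of which 119 were found in both libraries. The median per locus was 12 sites of both libraries, against 5 for all protein-coding genes. Of the bases of the joined loci 6.59% were listed in both libraries with an FDR (false discovery rate) up to 0.001, against 1.03% over the loci of all protein-coding genes. All 10 genes were open, while only 66.1% of all protein-coding genes were, and no comparison with open genes alone was made. The medians per locus also count the regions shared by the overlapping Hspa1a and Hspa1b loci in both.

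**Figure D4:**
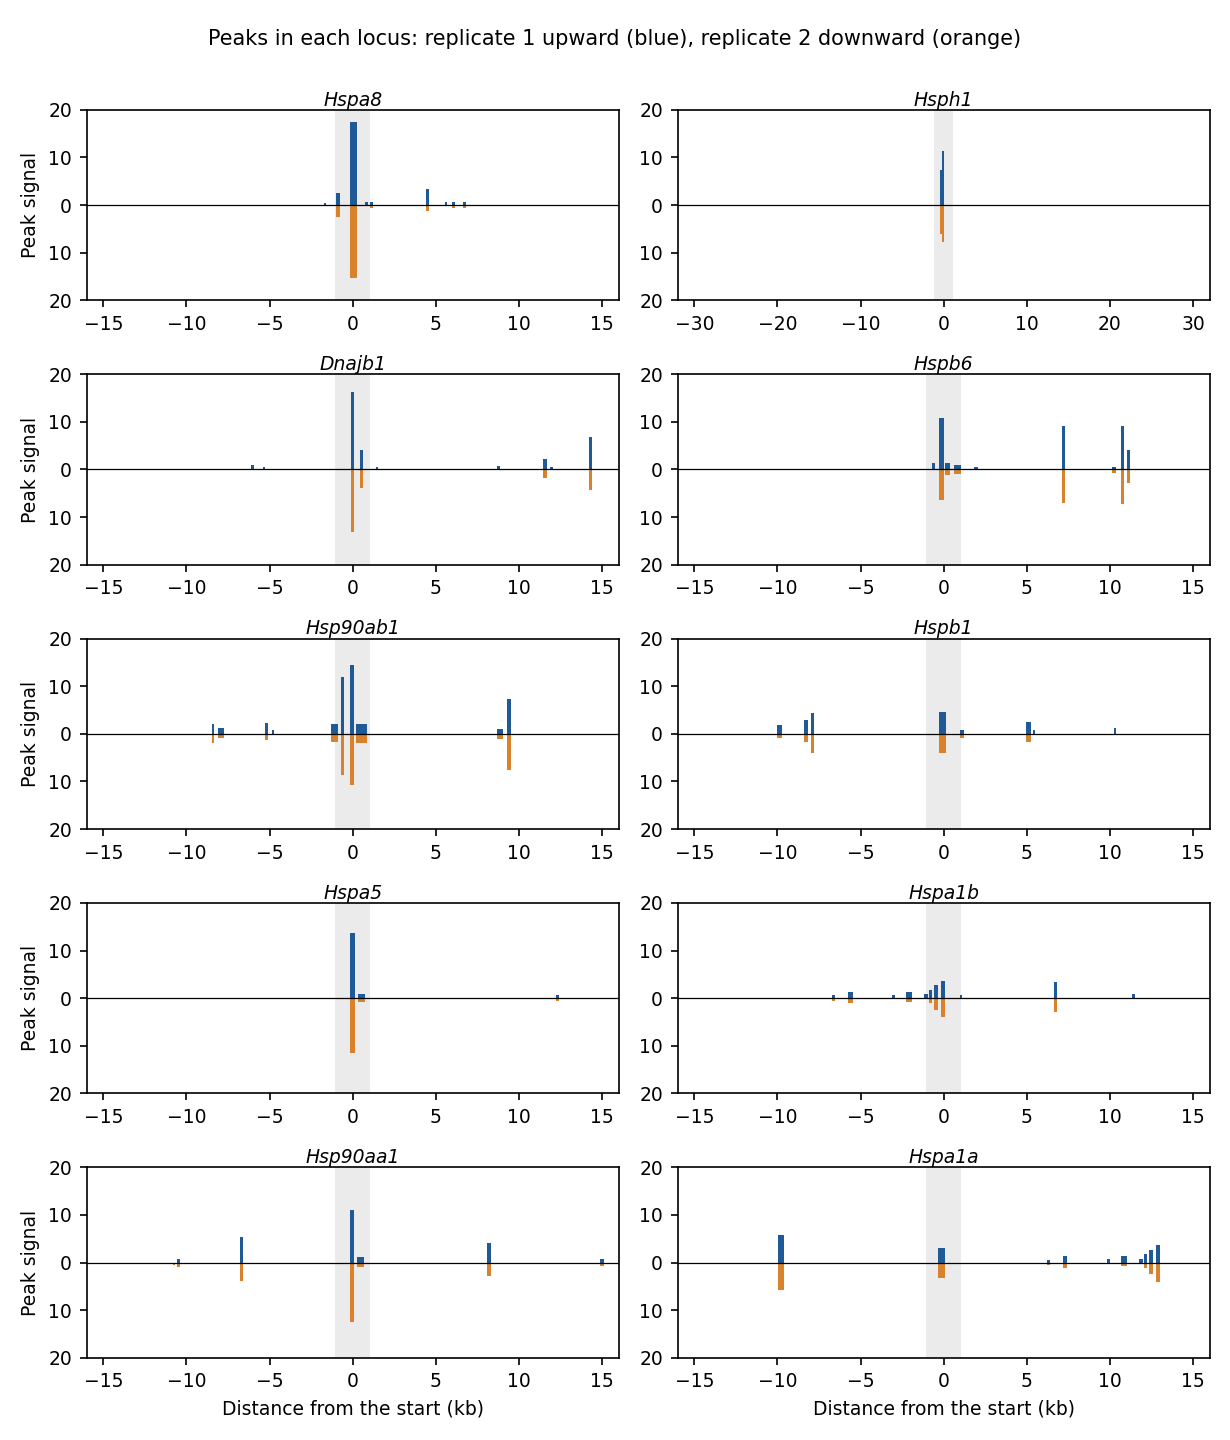
Peaks in the locus of each gene by distance from its start in kb (horizontal axis, transcription to the right), with the signal of replicate 1 upward in blue and of replicate 2 downward in orange. Grey marks 1 kb on each side of the start, and the axis of Hsph1 is wider than the others. Hsph1 has no peak away from its start, while Hspb1, Dnajb1 and Hsp90aa1 have distant peaks in both libraries.

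Many of the strong distant peaks were promoters of other genes. In the Hspb6 locus all 7 shared regions were centred in promoters, with means of 8.13 at Lin37 and 8.23 at the shared start of Psenen and U2af1l4. In the Hsp90ab1 locus the start of Slc35b2 had 7.44 ± 0.292. Leaving out regions centred within 1 kb of any annotated start or touching the gene's own promoter window, 7 loci kept a shared peak, counting the one between Hspa1a and Hspa1b once. The strongest of each was read against the 46147 shared regions centred farther from every start, whose median was 0.943. The Dnajb1 peak at +14308 stood higher than 98.6% of them, the Hspb1 peak at −7898 higher than 96.9%, and the Hsp90aa1 peak at +8194 (mean 3.46 ± 0.874) higher than 94.98%. Those of Hspa5 and Hspa8 were low, higher than 24.3% and 23.2%.

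The sequences of the 2 strongest are given because no other shared peak outside promoters in these loci was as strong (mm10, plus strand, capitals mark footprints of both libraries). Which gene they serve was not measured.
Dnajb1 +14308 (chr8:83622421-83622580): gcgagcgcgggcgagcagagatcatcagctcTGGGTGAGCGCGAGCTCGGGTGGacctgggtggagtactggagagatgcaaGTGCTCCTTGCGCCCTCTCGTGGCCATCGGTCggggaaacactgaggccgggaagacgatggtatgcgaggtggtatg
Hspb1 −7898 (chr5:135879921-135880120): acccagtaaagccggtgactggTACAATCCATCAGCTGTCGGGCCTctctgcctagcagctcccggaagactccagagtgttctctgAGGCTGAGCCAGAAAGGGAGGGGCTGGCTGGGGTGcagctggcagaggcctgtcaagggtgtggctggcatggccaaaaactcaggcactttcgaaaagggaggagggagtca
Neither held a heat shock element within the 200 bases around its centre, where 4.54% of the 46147 regions have a match with at most 1 mismatch.

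The libraries differed in scale, and the members followed it unevenly. As deposited, replicate 1 was higher at 7 of 10 promoters, and Hsp90aa1, Hspa1a and Hspa1b were higher in replicate 2. After each library was divided by its median over all shared regions, the log2 ratio of replicate 1 to replicate 2 had a median of −0.17 over the members and −0.14 over all open genes, with SDs of 0.29 and 0.30. Hspb6 stood at the upper end, with 0.34, a ratio above that of 94.5% of open genes. Hsp90aa1 stood at the lower end, with −0.58, above 6.74%, followed by Hspa1b with −0.51 and Hspa1a with −0.45. With 1 library for each animal or pool, none of these differences can be tested.

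Other genes of the chaperone network were as widely open. Of 71 listed genes 69 were open, where the rule called 66.1% of all, and the exceptions were the small heat shock genes Cryaa, with no promoter peak, and Hspb3, with a peak in replicate 1 alone. The 15 ER folding genes had the highest median, 11.2, led by P4hb, a disulfide isomerase, at 14.8 ± 2.15 (SD, n = 2). The lists overlap, since Hsp90b1, Dnajb9, Dnajb11, Dnajc3 and Hyou1 of this list also count in the HSP90, J-domain or HSP70 lists. The 9 chaperonin genes had a median of 10.6, with Hspd1 and Hspe1 (HSP60 and its lid) sharing 1 peak at 13.1. The 13 J-domain genes had a median of 10.3, led by Dnajb4 at 16.7 ± 1.76, and the 13 co-chaperones 9.57, led by Stub1, a ubiquitin ligase, at 14.2 ± 4.23. The 2 other HSP90 genes were Hsp90b1 of the ER at 11.7 and Trap1 of mitochondria at 6.73. The 10 other HSP70 and HSP110 genes had a median of 7.84, from Hspa12b at 1.56 to Hspa2 at 16.2.

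The 5 open small heat shock genes besides the members had the lowest median, 3.03. Cryab and Hspb2, muscle genes that start close together, shared 1 peak at 3.40 ± 0.0369 (SD, n = 2), Hspb8 had 3.03 and Hspb7 1.74. The Hspb1 promoter, at 4.31, was above all of them, and so was the Hspb6 peak at the start it shares. Among the regulators, Hsf1, the heat shock factor, had 8.55 ± 1.18 and Hsf2 7.36, while Hsf4 had 2.20, below the median of open genes. Atf4 had 10.5, Atf6 9.19, Xbp1 10.9 and Ddit3, a target of the unfolded protein response, 17.3 ± 4.73.

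**Figure D5:**
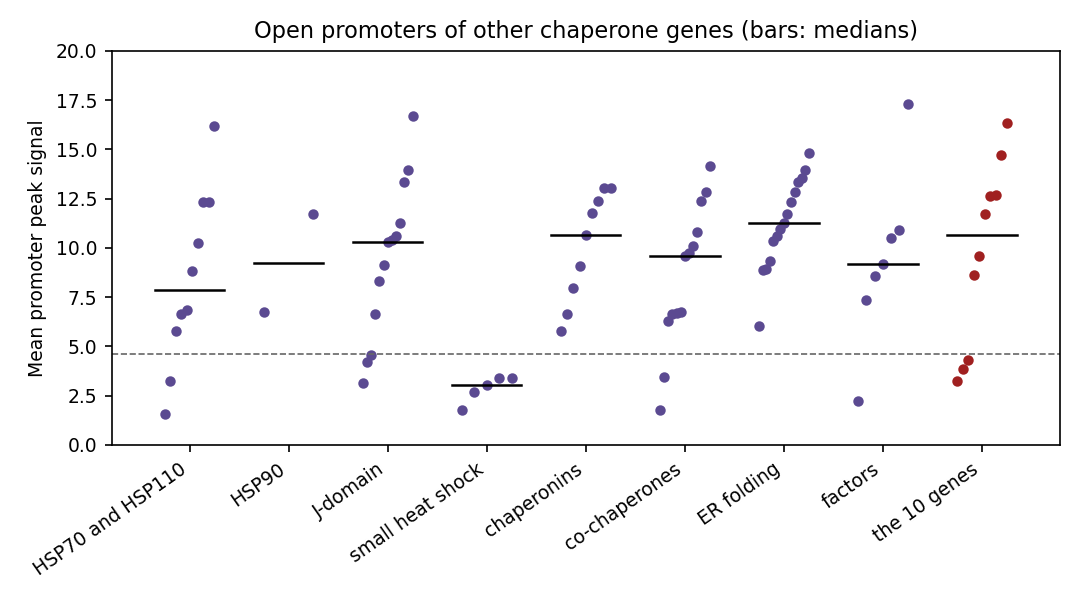
Mean promoter peak signal of both libraries (vertical axis) for the open genes of each chaperone list (purple points) and for the 10 genes (red points), with the median of each as a black bar and the median of all open protein-coding genes, 4.61, as a dashed line. Genes that belong to several lists are drawn in each. Small heat shock genes have the lowest median of the lists, 3.03, and ER folding genes the highest, 11.2.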

How the data were processed

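The deposited peak lists hold a position and a signal per peak, a density made by the authors, whose normalization no source at hand states. Signals were whole multiples of a library's own step (0.00521 and 0.00799), within 0.02 steps. The deposited footprint lists hold positions with the same score, 0.01, throughout. The deposited FDR track gives an adjusted p-value of the authors (a q-value) for stretches listed at 0.05 or lower. Files are per library, on mm10. Aligner, callers, filters and the handling of reads from CAST alleles of the cross: not given in the sources used here.

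Peaks of the longer lists were joined with Python 3.11.15, numpy 2.4.6 and pandas 2.3.3, annotated with GENCODE M21, and drawn with matplotlib 3.10.9. Sequences are RefSeq GRCm38.p6, the same assembly as mm10: 200 of 200 promoter windows matched its genome. They show the reference strain. Poisson 95% intervals (scipy 1.17.1) hold if 1 step is 1 cut. All 10 members are named. Joining, open calls and motif search were tested on simulated data. Of 72 listed chaperone genes, 71 are annotated as protein-coding. The members and lists were chosen with earlier results of these data known, and no test was made. The SD of 2 libraries measures the spread between these samples alone, which may be partly technical. Alternatives were the stricter lists, equal peak numbers, overlap, window, flank, FDR and scaling.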

Additional observations from a re-analysis of the deposited data

How the results depend on the processing

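No paired analysis was possible because there is 1 group. A count was held to have moved beyond 1.5 times its value, a signal or share beyond 1 SD between the libraries, and the log2 ratio beyond 1 SD over the members. By this, 31 of 42 alternatives to the summary values did not move and 11 did, and of 60 for single promoters 7 moved, all by summing peaks. For a single promoter, leaving out 1 of the 2 libraries shifts the mean by less than 1 SD whatever the values. Such an alternative could not count as moved. The stricter lists and the other windows kept the same strongest peak at every member and so returned the same value. The 7 of 60 is therefore no measure of how stable the promoter signals are. With the gene body alone there were 21 shared regions and 26 shared footprint sites in the joined loci. Leaving out either replicate gave 169 to 210 footprint sites. Summing all shared promoter peaks in place of taking the strongest gave a median signal of 14.9, against 5.86 for all open genes, and 1 library alone gave 9.33 to 11.1. Without scaling, the median log2 ratio of the libraries was 0.22 (0.25 over all open genes), against −0.17 (−0.14 over all open genes) with scaling. The share of bases was 8.66% at an FDR of 0.05, 7.70% at 0.01 and 8.94% in gene bodies, and 6.94% to 7.71% with 1 library. With no mismatch, the heat shock element was in 1 promoter. Of the regions of 1 library alone, 17 were in replicate 1, whose peak list is longer, and 1 in replicate 2. The part of depth in this was not tested.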
